A study of Mus musculus with 24 samples.

Results

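Members of the SRC, SYK and TEC families of cytoplasmic tyrosine kinases were measured in mouse B cells lacking PU.1, SpiB or both. The 9 genes, taken by symbol from the deposited count tables, were Lyn, Blk, Fyn and Fgr (SRC family), Syk and Zap70 (SYK family), Btk and Tec (TEC family), and Csk, the kinase that holds SRC family members in check. They are 9 of the 27179 genes in those tables, and all 9 passed the filter on low counts at each of the 3 stages. RNA-seq was performed on 24 libraries, with 2 for each of 4 genotypes at each stage. Naive B cells were CD3- B220+ CD138- cells sorted from lymph nodes of C57BL/6 mice aged 6 to 20 weeks, and cultured B cells were kept for 48 h in CD40L + IL-4 or in LPS + IL-4 and sorted through the same gate.

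Control mice were Cd23T/+ and so carried the B cell recombinase driven from Cd23, with Spi1, the gene for PU.1, intact. PU.1 cKO mice were Spi1fl/fl Cd23T/+, in which Spi1 is deleted in B cells from the stage at which Cd23 is expressed. SpiB KO mice were Spi1fl/fl Cd23+/+ Spib-/-, with a germline loss of Spib in every tissue and no recombinase. PU.1 SpiB DKO mice were Spi1fl/fl Cd23T/+ Spib-/-. By the study's account, naive cells of these mice still held part of the floxed Spi1 exon, which was gone after culture, so naive PU.1 SpiB DKO is a partial loss of PU.1 on top of the loss of Spib. In the comparison of SpiB KO with control, the loss of Spib therefore cannot be told apart from the absence of the recombinase and the presence of unrecombined floxed Spi1. The study calls the 2 libraries of a group biological replicates. The sources used here do not say whether they came from separate mice, so p-values measure the spread between libraries.

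When the B cell antigen receptor is engaged, SRC family kinases phosphorylate paired tyrosines in its signalling chains, SYK binds there and phosphorylates adaptors, and BTK then activates phospholipase C gamma. Lyn, Blk and Fyn are the SRC family members known in resting B cells, and Lyn also phosphorylates inhibitory receptors, so that it both starts and limits the signal. Zap70 is the paralogue of Syk that serves the T cell receptor, Tec is a paralogue of Btk, and Fgr is best known in myeloid cells.

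PU.1 and SpiB are ETS family transcription factors that bind DNA around a GGAA core, most often read as GAGGAA in sites they share. RefSeq promoter windows on build GRCm38.p6, running from 250 bases before to 50 after an annotated start, were found for 7 of the 9 genes, the exceptions being Lyn and Blk. GAGGAA on either strand, read as TTCCTC on the other, occurred in at least 1 window of 5 of those 7 (Zap70, Btk, Fgr, Syk and Csk) and in no window of Fyn or Tec. The 7 genes had 11 windows, and Syk entry 1 and Zap70 entry 3 also held no match. Over all 32851 windows 28.3% held it, and 23.3% held it before the start. These are shares of windows and not of genes, and genes with several windows had more chances to hold it. The longer GAGGAAGT was in no window of a member and in 3.2% of all windows. The stretch upstream of the first Zap70 start is printed because this gene changed most, and the others show the letters around the motif, which is in capitals. Each is written 5′ to 3′ on the strand of its gene. A second Csk window, entry 2, held 3 matches that are not printed. Such a match says only that the letters are present, and binding was not measured here.

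Zap70, entry 1, chr1:36761548-36761797, + strand, ending at the base before the start: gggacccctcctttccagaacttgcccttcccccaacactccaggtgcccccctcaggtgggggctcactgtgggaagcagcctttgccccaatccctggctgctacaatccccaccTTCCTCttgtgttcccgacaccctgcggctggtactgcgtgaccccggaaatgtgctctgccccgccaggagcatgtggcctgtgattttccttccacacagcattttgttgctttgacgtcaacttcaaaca
Zap70, entry 2, chr1:36764331-36764360, + strand, 172 bases before the start: ccgaatggaatgGAGGAAgggggtatctaa
Syk, entry 2, chr13:52596861-52596890, + strand, 9 bases before the start: tgctgacactttGAGGAAaagccacttccc
Btk, chrX:134583114-134583143, - strand, 9 bases after the start: ctcagactgtccTTCCTCtctggactgtaa
Fgr, chr4:132974114-132974143, + strand, 31 bases after the start: gtccgagacggcTTCCTCctccctccccag
Csk, entry 1, chr9:57653749-57653778, - strand, 135 bases before the start: ccctgccactcgGAGGAAtcactaagcggc

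The counts assigned to genes ranged from 14231188 to 18194629 per library in naive cells, from 9598674 to 61640683 in CD40L + IL-4 and from 22757630 to 73658850 with LPS + IL-4. In the CD40L + IL-4 set, PU.1 cKO replicate 2 was the deepest library. Counts were scaled to library size (CPM) over the 8 libraries of a stage, so CPM values given for a genotype comparison belong to that stage's scale. Spib fell as labelled, from 1472 and 1354 CPM in naive control to 85.6 and 80.2 in SpiB KO and 98.8 and 100.3 with PU.1 SpiB DKO. For Spi1, whose whole-gene counts include exons outside the deleted part, naive values were 155 and 174 CPM in the control, 59.5 and 53.2 in the PU.1 cKO and 103 and 110.1 in PU.1 SpiB DKO, while in LPS + IL-4 the PU.1 SpiB DKO values of 63.9 and 58.8 overlapped the control values of 72.0 and 60.7. A gene was called changed when edgeR's quasi-likelihood test gave a Benjamini-Hochberg adjusted p under 0.15 and the fold exceeded 1.5, and ± marks the standard error of a log2 fold change. Genotypes are named as labelled throughout. All comparisons with control at a stage share the same 2 control libraries.

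In naive control cells, compared per transcript length on the deposited log2 RPKM scale, Csk was the most abundant of the 9 transcripts at 8.15 and 8.10, followed by Blk at 7.44 and 7.39 and Lyn at 6.62 and 7.03. Syk at 6.23 and 6.75 overlapped both Lyn above it and Btk below it at 6.12 and 6.28. Tec stood at 5.13 and 5.41, and Fgr at 4.61 and 4.34 could not be separated from Fyn at 4.48 and 4.45. Zap70 was the lowest member, at 1.56 and 1.42. In LPS + IL-4 the order ran Csk, Btk, Syk, Lyn, Blk, Fyn, Tec, Fgr and Zap70 with no overlap between neighbours. The CD40L + IL-4 order began with Csk and ended with Fgr and Zap70, and in between Btk overlapped Blk, Blk overlapped Lyn, and Tec overlapped Syk. The LPS + IL-4 RPKM table was normalised separately from that of the other stages, so only the order within a stage is compared here.

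**Figure D1:**
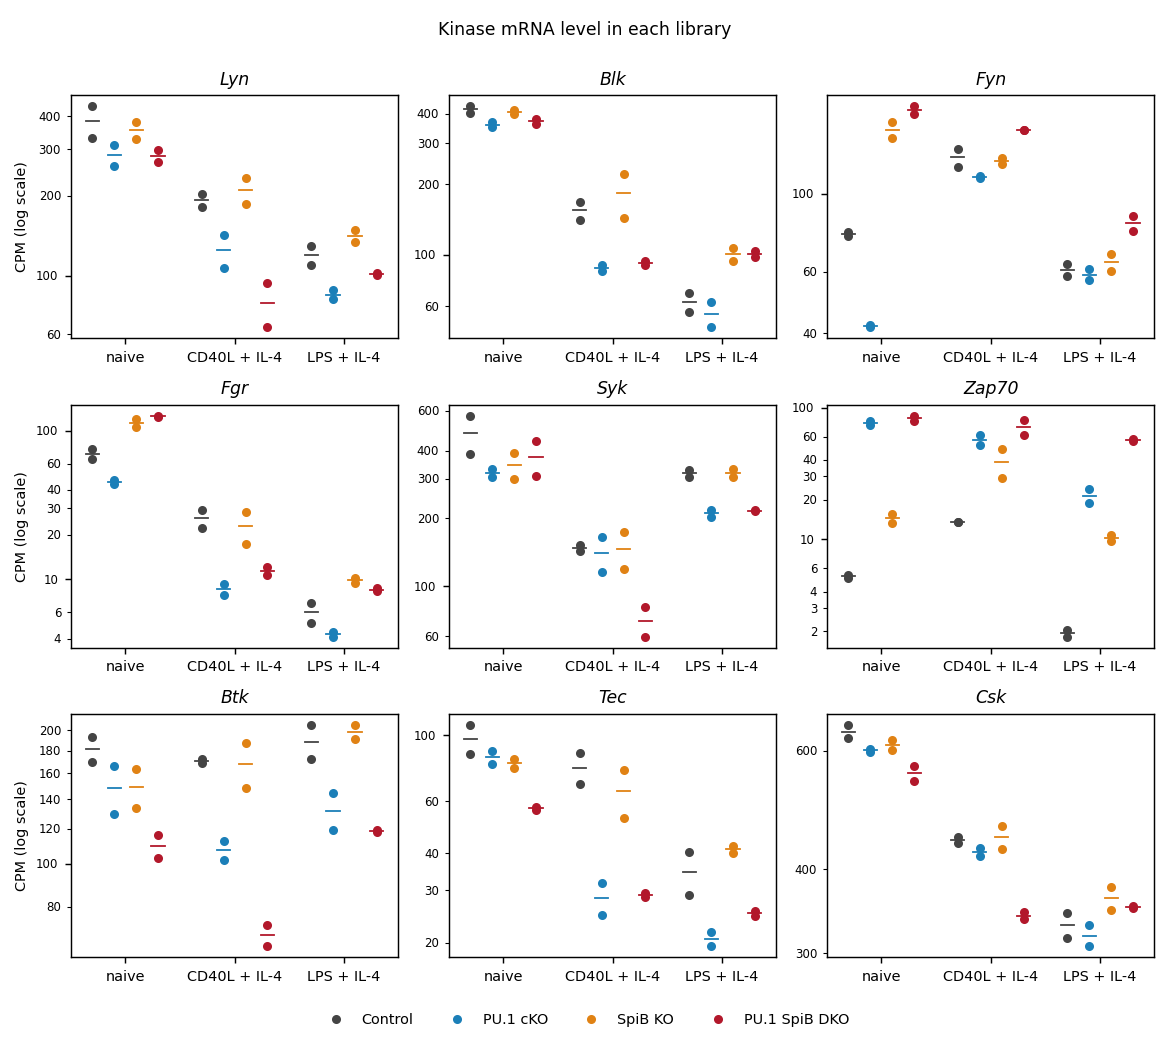
Levels of the 9 kinase transcripts by library, in CPM scaled within each stage, on a log axis. Each point is 1 library and each dash the mean of its group, with 2 libraries per genotype at each of the 3 stages. Zap70 points of the mutants lie above the control points at every stage, whereas the Csk points of the 4 genotypes lie close together.

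Most members were lower in cultured than in naive control cells. Of the 9 kinases, 7 were called between CD40L + IL-4 and naive cells, where 48.8% of all genes tested were called, and 5 of them were lower, against 23.4% of all genes called lower. In LPS + IL-4 against naive cells 7 were called, against 63.9% of all genes, and all 7 were lower, against 31.3% of all genes called lower. Between LPS + IL-4 and CD40L + IL-4 7 were called, against 41.2% of all genes: Syk was higher in LPS + IL-4, and Zap70, Fgr, Blk, Tec, Fyn and Lyn were lower. Since the CD40L + IL-4 libraries come from a separate count table, that stage and its table cannot be told apart in either comparison that uses it.

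On the scale shared by all 24 libraries, Fgr fell furthest, from 81.6 and 67.5 CPM in naive control to 21.3 and 28.7 in CD40L + IL-4 and 6.63 and 5.05 with LPS + IL-4 (LPS + IL-4 against naive, log2 fold change -3.69 ± 0.21, adjusted p = 1.22e-11). Blk, a B lineage SRC kinase, went from 468 and 423 CPM to 136 and 164 and 65.3 and 56.2 (LPS + IL-4 against naive, log2 fold change -2.88 ± 0.17, adjusted p = 3.30e-11). For both genes the 3 stages did not overlap. Lyn fell by 1.13 on the log2 scale in CD40L + IL-4 and by 1.81 in LPS + IL-4, and Csk by 0.67 and 1.09.

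Syk and its paralogue moved differently between the stages. Syk stood at 419 and 596 CPM in naive control, 138 and 149 in CD40L + IL-4 and 314 and 302 with LPS + IL-4, so that the CD40L + IL-4 cells were lowest (CD40L + IL-4 against naive, log2 fold change -1.82 ± 0.22, adjusted p = 1.05e-06). Zap70 stood at 5.86 and 5.35 CPM in naive control, 13.0 and 13.3 in CD40L + IL-4 and 1.95 and 1.80 with LPS + IL-4, with the CD40L + IL-4 cells highest (CD40L + IL-4 against naive, log2 fold change 1.23 ± 0.23, adjusted p = 0.00014). Fyn had the same order of stages as Zap70, at 82.4 and 81.3, 129 and 117 and 60.6 and 57.5 CPM, and its rise in CD40L + IL-4 was called (log2 fold change 0.59 ± 0.10, adjusted p = 8.78e-05). Btk was called in no comparison of stages, its log2 differences lying between -0.23 and 0.15. Tec, by contrast, was at 93.9 and 113 CPM in naive control and 38.7 and 28.7 in LPS + IL-4 (log2 fold change -1.62 ± 0.17, adjusted p = 9.66e-08).

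Against control, the number of the 9 kinases called in PU.1 cKO was 4 in naive cells, where 10.7% of all genes tested were called, 6 in CD40L + IL-4, against 13.5%, and 2 in LPS + IL-4, against 10.5%. In CD40L + IL-4, 5 of those 6 were lower, against 7.21% of all genes called lower. In SpiB KO, 3 were called in naive cells, against 9.62% of all genes, 1 in CD40L + IL-4, against 0.134%, and 3 in LPS + IL-4, against 3.19%. All 7 of these SpiB KO calls were higher values, against 6.01% of all genes called higher in naive cells and 2.25% in LPS + IL-4. In PU.1 SpiB DKO, 5 were called in naive cells, against 21.2% of all genes, 7 in CD40L + IL-4, against 18.3%, and 3 in LPS + IL-4, against 20.2%. Of the 7 in CD40L + IL-4, 6 were lower, against 9.20% of all genes called lower. The median log2 fold change of the 9 kinases in PU.1 SpiB DKO was -0.21 at the naive stage, -1.08 in CD40L + IL-4 and 0.09 with LPS + IL-4, beside a median over all genes between 0.00 and 0.01.

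Several of these counts rested on single libraries. In CD40L + IL-4 the count for PU.1 cKO was 3 without PU.1 cKO replicate 2, the calls of Lyn, Blk and Btk being lost, and the single SpiB KO call, Zap70, was lost without control replicate 1, control replicate 2 or SpiB KO replicate 1. In LPS + IL-4 the count for PU.1 cKO was 6 without control replicate 2, 4 without PU.1 cKO replicate 1 and 1 without control replicate 1, and that for SpiB KO was 1 without control replicate 2 or SpiB KO replicate 2, Blk and Fgr being lost. In naive cells the PU.1 cKO count was 2 without PU.1 cKO replicate 1, Fgr and Syk being lost.

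**Figure D2:**
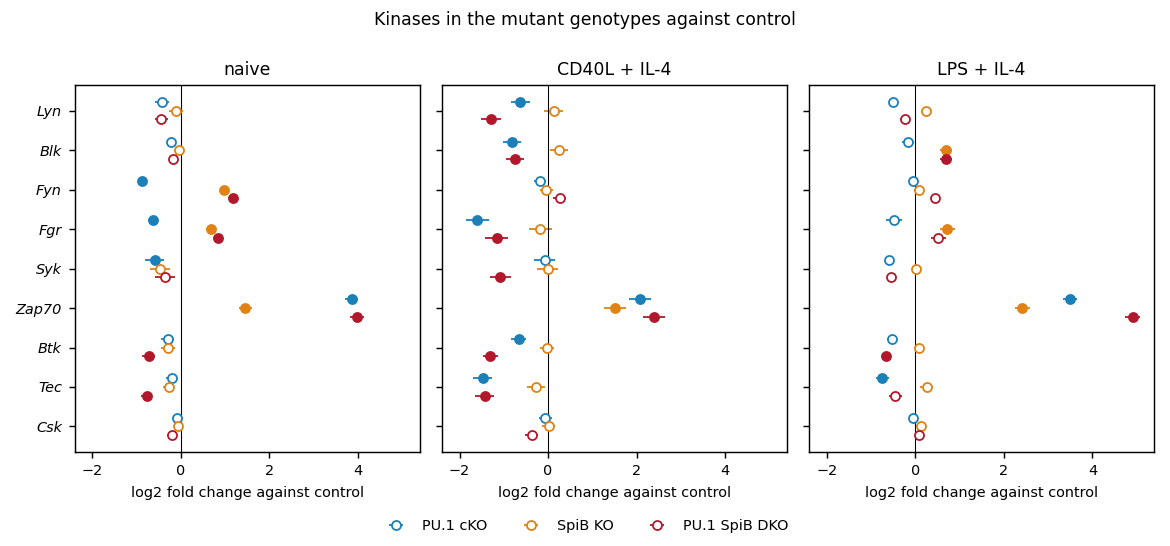
Log2 fold change against control of the 9 kinases in each mutant genotype at each stage, with bars of 1 standard error from edgeR's fit and filled points where the change was called. Zap70 has the largest change in each panel, and in CD40L + IL-4 the PU.1 SpiB DKO values of 7 of the other kinases are below 0.

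Zap70 (chr1:36761798-36782821), the T cell paralogue of Syk, was higher than control in every mutant genotype at every stage. Naive values were 5.39 and 5.12 CPM (control), 73.8 and 79.1 (PU.1 cKO), 15.6 and 13.4 (SpiB KO) and 79.4 and 86.7 (PU.1 SpiB DKO). The naive control libraries held 77 and 72 Zap70 reads. PU.1 cKO was 14.5-fold above control (log2 fold change 3.86 ± 0.15, adjusted p = 7.35e-07), PU.1 SpiB DKO 15.8-fold (log2 fold change 3.98 ± 0.15, adjusted p = 1.24e-06) and SpiB KO 2.75-fold (log2 fold change 1.46 ± 0.15, adjusted p = 0.000538). The 4 groups did not overlap, though PU.1 cKO was close to PU.1 SpiB DKO, and these genotypes were not called apart (adjusted p = 0.658 by edgeR).

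In CD40L + IL-4, Zap70 measured 13.5 and 13.6 CPM (control), 52.2 and 61.8 (PU.1 cKO), 48.4 and 29.1 (SpiB KO) and 80.9 and 62.3 (PU.1 SpiB DKO). All 6 mutant libraries lay above both controls, the fold being 4.21 in PU.1 cKO (adjusted p = 0.000464 by edgeR), 2.85 in SpiB KO (adjusted p = 0.0708) and 5.27 with PU.1 SpiB DKO (adjusted p = 0.000139). In LPS + IL-4 the values were 2.03 and 1.82 CPM (control), 24.2 and 18.7 (PU.1 cKO), 9.62 and 10.8 (SpiB KO) and 56.0 and 58.1 (PU.1 SpiB DKO). There the 4 genotypes did not overlap, and the fold over control was 11.3 for PU.1 cKO, 5.35 for SpiB KO and 30.0 for PU.1 SpiB DKO (log2 fold changes 3.50 ± 0.16, 2.42 ± 0.16 and 4.91 ± 0.17). The control libraries held 47 and 101 Zap70 reads at that stage. PU.1 SpiB DKO was above PU.1 cKO in LPS + IL-4 (log2 fold change 1.41 ± 0.13, adjusted p = 0.000376).

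Because Zap70 is a T cell and NK cell gene, the level of T and NK markers is given beside it. In naive cells the summed level of 8 T cell markers was 16.8 to 53.2 CPM (control), 29.2 to 32.7 (PU.1 cKO), 313 to 390.5 (SpiB KO) and 437 to 444 (PU.1 SpiB DKO). The summed level of 4 NK cell markers was 25.3 to 55.6, 19.8 to 47.2, 68.7 to 97.2 and 81.4 to 112 CPM in the same order. Of these, Klrd1 was called higher in naive SpiB KO and PU.1 SpiB DKO (30.8 to 39.2 and 45.5 to 54.6 CPM, against 4.90 to 12.5 in control), and Ncr1, Klrk1 and Klrb1c were not called. The naive PU.1 cKO libraries, with Zap70 at 73.8 and 79.1 CPM, had T and NK marker sums that overlapped those of control. In the naive libraries the T cell sum came mainly from Cd8a (up to 266 CPM), Cd8b1 (up to 104) and Cd4 (up to 96.9), genes that some dendritic cells also express. Cd3d, Cd3e and Cd3g did not exceed 1.23 CPM. In culture the T cell sum did not exceed 4.12 CPM in CD40L + IL-4 and 1.69 CPM in LPS + IL-4, and the NK cell sum did not exceed 1.05 and 0.191 CPM. The part of cells that carry these markers in the Zap70 differences was not tested. In bulk samples, a change in how many cells express a gene and a change in RNA per cell cannot be told apart, and this holds for all values here.

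Syk (chr13:52582610-52648792), which couples the receptor to downstream adaptors, was lower in some mutants. Naive values were 386 and 570.2 CPM (control), 306 and 329.6 (PU.1 cKO), 299 and 391 (SpiB KO) and 307 and 439.8 (PU.1 SpiB DKO). The PU.1 cKO libraries lay below both controls (log2 fold change -0.59 ± 0.22, adjusted p = 0.143), a call lost with limma-voom, with all 24 libraries, with only the groups compared and without either PU.1 cKO library, either SpiB KO library or control replicate 2, whereas SpiB KO and PU.1 SpiB DKO overlapped control and were not called. In CD40L + IL-4, Syk measured 143 and 153 CPM (control), 165 and 116 (PU.1 cKO), 174 and 119 (SpiB KO) and 80.7 and 59.7 (PU.1 SpiB DKO). Only PU.1 SpiB DKO lay below control there (log2 fold change -1.08 ± 0.24, adjusted p = 0.0127), and it was also below PU.1 cKO (log2 fold change -1.0 ± 0.24, adjusted p = 0.0634) and SpiB KO (log2 fold change -1.06 ± 0.24, adjusted p = 0.0161). In LPS + IL-4 the values were 328 and 305 CPM (control), 219 and 203 (PU.1 cKO), 333 and 305 (SpiB KO) and 215 and 217 (PU.1 SpiB DKO). Both genotypes without PU.1 lay below control and SpiB KO, by less than the 1.5-fold threshold (PU.1 cKO, log2 fold change -0.58 ± 0.08, adjusted p = 0.00168; PU.1 SpiB DKO, log2 fold change -0.55 ± 0.08, adjusted p = 0.00105).

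The makeup of the SYK pair was read from the deposited RPKM values, which allow for transcript length. In naive cells Zap70 made up 3.79 and 2.43% of the summed Syk and Zap70 RPKM (control), 37.5 and 37.8% (PU.1 cKO), 11.8 and 7.61% (SpiB KO) and 39.1 and 32.0% (PU.1 SpiB DKO). In CD40L + IL-4 the share was 18.5 and 16.5% (control), 43.1 and 56.3% (PU.1 cKO), 39.1 and 37.4% (SpiB KO) and 70.8 and 71.6% (PU.1 SpiB DKO). At that stage Zap70 was thus the more abundant of the pair per transcript length in both PU.1 SpiB DKO libraries. In LPS + IL-4 the share was 1.57 and 1.78% (control), 21.6 and 19.1% (PU.1 cKO), 6.43 and 8.03% (SpiB KO) and 37.7 and 38.5% (PU.1 SpiB DKO).

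**Figure D3:**
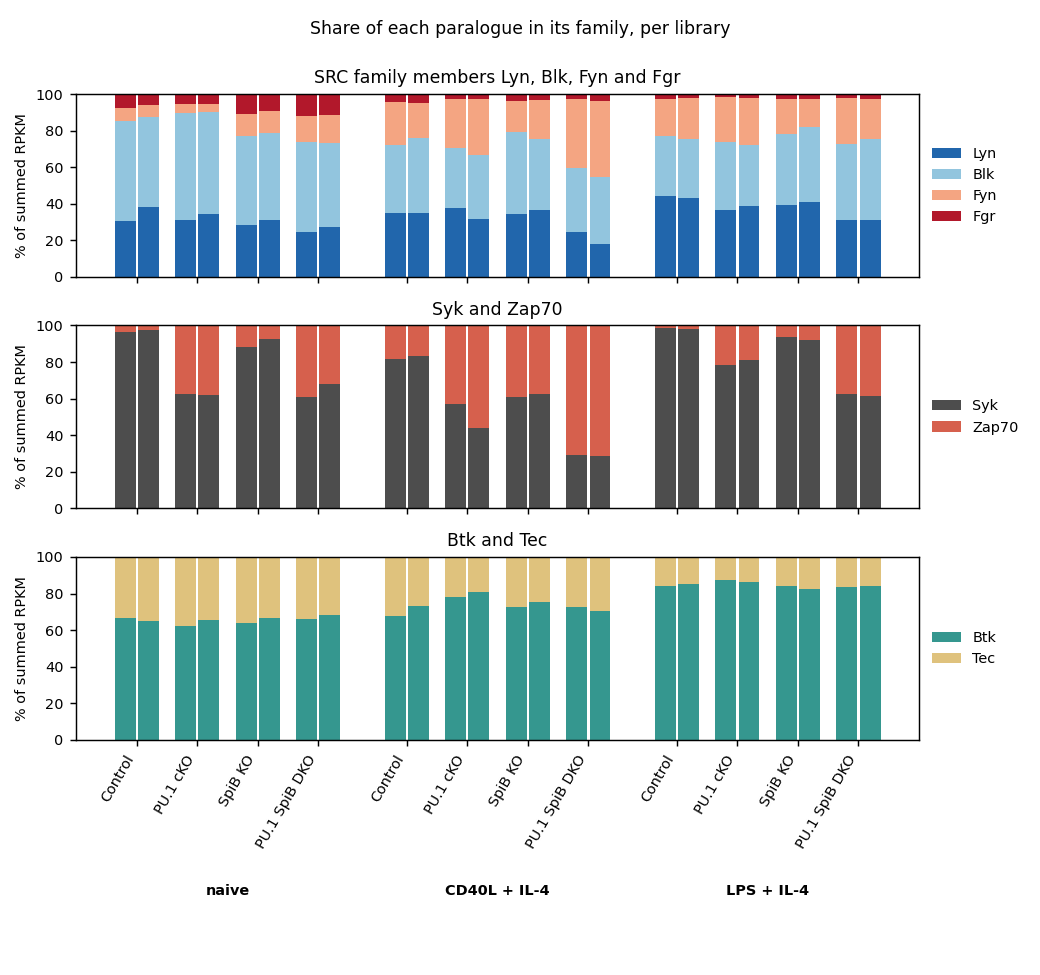
Share of each kinase in the summed deposited RPKM of its own family, in percent, for the SRC, SYK and TEC families by genotype and stage. Each stacked bar is 1 library and sums to 100%, with replicates of a genotype side by side. The Zap70 part of the SYK pair widens from a mean of 17.5% in control to 71.2% in PU.1 SpiB DKO in CD40L + IL-4, while the Tec part of the TEC pair is 29.4% and 28.5% in the same groups.

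Among the SRC kinases, Fyn (chr10:39369743-39565381), which acts in both T and B cell receptor signalling, moved in opposite directions in the single mutants in naive cells. Values there were 75.8 and 77.7 CPM (control), 41.6 and 42.2 (PU.1 cKO), 144 and 160.1 (SpiB KO) and 169 and 177 (PU.1 SpiB DKO). PU.1 cKO was below control (log2 fold change -0.87 ± 0.10, adjusted p = 0.00148), SpiB KO above it (log2 fold change 0.99 ± 0.10, adjusted p = 0.000543), and PU.1 SpiB DKO above it (log2 fold change 1.17 ± 0.10, adjusted p = 9.43e-05). The groups did not overlap, and PU.1 SpiB DKO was above PU.1 cKO 4.13-fold (adjusted p = 5.67e-06 by edgeR).

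Fgr (chr4:132974095-133001893) had the same pattern in naive cells, with 75.1 and 64.5 CPM (control), 43.5 and 46.7 (PU.1 cKO), 119.6 and 105 (SpiB KO) and 126 and 124 (PU.1 SpiB DKO). On the log2 scale Fgr differed from control by -0.63 ± 0.12 for PU.1 cKO, 0.68 ± 0.12 for SpiB KO and 0.84 ± 0.12 for PU.1 SpiB DKO (edgeR adjusted p = 0.0155, 0.00974 and 0.00128). PU.1 cKO lay below control, and SpiB KO and PU.1 SpiB DKO above it, without overlap.

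In these naive libraries the groups in which Fyn and Fgr were higher were also those in which markers of other cells were higher. Beside the T cell and NK cell sums above, 5 plasmacytoid dendritic cell markers summed to 77.7 to 150.2 CPM in control, 96.6 to 96.8 for PU.1 cKO, 560 to 668 in the SpiB KO libraries and 767 to 827 in the PU.1 SpiB DKO libraries. Of 8 listed macrophage and neutrophil markers 7 were measured, and they summed to 9.31 to 17.9, 11.2 to 11.3, 45.1 to 56.6 and 63.0 to 63.5 CPM, with up to 3 of the 7 at 0. Most of the last sums was Cd68, at 36.8 to 49.1 CPM in SpiB KO and 52.6 to 55.4 in PU.1 SpiB DKO against 5.76 to 11.3 in control, while Itgam and Csf1r were not called. Lyz2, at no more than 5.95 CPM in any naive library, was called higher in PU.1 SpiB DKO (log2 fold change 1.60 ± 0.55, edgeR adjusted p = 0.0702) but not in SpiB KO. The part of all these markers in the Fyn and Fgr differences was not tested. The lower values of both genes in PU.1 cKO came with marker sums that overlapped those of control or were within their range.

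In culture Fyn differed less. It measured 134 and 119 CPM (control), 111 and 113 (PU.1 cKO), 126 and 121 (SpiB KO) and 151 and 152 (PU.1 SpiB DKO) in CD40L + IL-4, where the highest values were in PU.1 SpiB DKO but no genotype was called against control (PU.1 SpiB DKO, log2 fold change 0.26 ± 0.14, adjusted p = 0.262). With LPS + IL-4 Fyn stood at 63.1 and 58.2 CPM (control), 60.9 and 56.7 (PU.1 cKO), 67.4 and 60.1 (SpiB KO) and 86.5 and 78.3 (PU.1 SpiB DKO). The last of these lay above the other 3 genotypes, by less than 1.5-fold against control (log2 fold change 0.44 ± 0.09, adjusted p = 0.00601).

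Fgr was low in culture. In CD40L + IL-4 it measured 22 and 29.3 CPM (control), 9.32 and 7.83 (PU.1 cKO), 28.4 and 17.2 (SpiB KO) and 10.7 and 12.2 (PU.1 SpiB DKO). Both genotypes without PU.1 lay below control and SpiB KO (PU.1 cKO, log2 fold change -1.60 ± 0.26, adjusted p = 0.00314; PU.1 SpiB DKO, log2 fold change -1.16 ± 0.26, adjusted p = 0.0142). In LPS + IL-4 it measured 6.91 and 5.11 CPM (control), 4.11 and 4.44 (PU.1 cKO), 9.45 and 10.3 (SpiB KO) and 8.29 and 8.78 (PU.1 SpiB DKO), or 160 and 284 reads in the control libraries. SpiB KO was above control there (log2 fold change 0.73 ± 0.17, adjusted p = 0.0703) and PU.1 SpiB DKO above PU.1 cKO (log2 fold change 1.0 ± 0.17, adjusted p = 0.00581), with PU.1 cKO the lowest genotype. The macrophage and neutrophil sum did not exceed 17.4 CPM in CD40L + IL-4 and 3.89 CPM in LPS + IL-4.

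Lyn (chr4:3678068-3791612), the kinase that serves both activating and inhibitory receptors, was called lower in PU.1 cKO and in PU.1 SpiB DKO in CD40L + IL-4 only. Naive values were 332 and 436 CPM (control), 260.1 and 312 (PU.1 cKO), 329 and 382 (SpiB KO) and 269 and 298 (PU.1 SpiB DKO). Libraries of PU.1 cKO and of PU.1 SpiB DKO lay below both controls without a call, since their folds were under 1.5 (PU.1 SpiB DKO, log2 fold change -0.44 ± 0.16, adjusted p = 0.0782). In CD40L + IL-4, Lyn measured 182 and 203 CPM (control), 142 and 107 (PU.1 cKO), 234 and 187 (SpiB KO) and 94.0 and 63.8 (PU.1 SpiB DKO). The last of these was lowest (log2 fold change -1.29 ± 0.22, adjusted p = 0.00321), PU.1 cKO lay between it and control (log2 fold change -0.63 ± 0.21, adjusted p = 0.105), and SpiB KO overlapped control. Lyn values in LPS + IL-4 were 129.6 and 109.7 CPM (control), 88.0 and 81.4 (PU.1 cKO), 134 and 149 (SpiB KO) and 100.2 and 102 (PU.1 SpiB DKO), with PU.1 cKO below every other group by less than 1.5-fold against control (log2 fold change -0.50 ± 0.10, adjusted p = 0.0112).

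Blk (chr14:63372837-63417187) differed in direction between the culture conditions. Naive values were 431 and 405 CPM (control), 350.0 and 368 (PU.1 cKO), 400.4 and 417 (SpiB KO) and 382 and 361 (PU.1 SpiB DKO), with no call against control. In CD40L + IL-4 it measured 141 and 168 CPM (control), 89.8 and 85.0 (PU.1 cKO), 222 and 143 (SpiB KO) and 94.0 and 90.4 (PU.1 SpiB DKO), and both genotypes without PU.1 lay below the others (PU.1 cKO, log2 fold change -0.82 ± 0.20, adjusted p = 0.0294; PU.1 SpiB DKO, log2 fold change -0.74 ± 0.20, adjusted p = 0.0345). The LPS + IL-4 libraries gave 68.1 and 56.9 CPM (control), 62.6 and 48.8 (PU.1 cKO), 94.2 and 107 (SpiB KO) and 97.6 and 103 (PU.1 SpiB DKO). Here both genotypes without Spib lay above control and PU.1 cKO (SpiB KO, log2 fold change 0.69 ± 0.13, adjusted p = 0.0322; PU.1 SpiB DKO, log2 fold change 0.69 ± 0.13, adjusted p = 0.00386), while PU.1 cKO overlapped control.

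As a share of the summed RPKM of the 4 SRC kinases, Lyn and Blk together held most of the family in naive control, with Lyn at 30.8 and 38.4% and Blk at 54.5 and 49.2%. In naive PU.1 SpiB DKO, Fyn held 14.4 and 15% against 7.02 and 6.44% in control. In CD40L + IL-4, Fyn held 37.9 and 41.8% in PU.1 SpiB DKO against 23.6 and 18.9% in control, and Lyn held 24.8 and 18.1% against 34.7 and 35.2%. At that stage Fyn was the most abundant SRC kinase on average in PU.1 SpiB DKO and the third in control. In LPS + IL-4, Blk held 42.0 and 44.1% in PU.1 SpiB DKO against 32.8 and 32.1% in control.

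Btk (chrX:134542334-134583628), the TEC kinase needed for B cell receptor signalling to phospholipase C gamma, was lowest in PU.1 SpiB DKO or tied for it at every stage. It measured 169.8 and 193 CPM (control), 129.6 and 166 (PU.1 cKO), 134 and 164 (SpiB KO) and 103 and 116 (PU.1 SpiB DKO) in naive cells. Only PU.1 SpiB DKO was called there (log2 fold change -0.73 ± 0.15, adjusted p = 0.00956). In CD40L + IL-4 it measured 172 and 168 CPM (control), 113 and 102 (PU.1 cKO), 188 and 148 (SpiB KO) and 72.9 and 65.3 (PU.1 SpiB DKO), with PU.1 SpiB DKO below PU.1 cKO and both below control (PU.1 cKO, log2 fold change -0.67 ± 0.16, adjusted p = 0.0285; PU.1 SpiB DKO, log2 fold change -1.30 ± 0.17, adjusted p = 0.000547). In LPS + IL-4 it measured 205 and 172 CPM (control), 144 and 119 (PU.1 cKO), 205 and 191 (SpiB KO) and 119 and 118 (PU.1 SpiB DKO), and PU.1 SpiB DKO was below control (log2 fold change -0.67 ± 0.11, adjusted p = 0.00207), while PU.1 cKO, also below both controls, had a fold under 1.5 (log2 fold change -0.52 ± 0.11, adjusted p = 0.0165). SpiB KO was not called at any stage.

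Tec (chr5:72755718-72868654), its paralogue, was reduced alongside it. Naive values were 86.3 and 108 CPM (control), 80.3 and 88.3 (PU.1 cKO), 77.8 and 83.2 (SpiB KO) and 56.2 and 57.5 (PU.1 SpiB DKO), and the PU.1 SpiB DKO libraries lay below all others (log2 fold change -0.77 ± 0.13, adjusted p = 0.00314). In CD40L + IL-4 it measured 87.2 and 68.3 CPM (control), 31.8 and 24.7 (PU.1 cKO), 76.7 and 52.7 (SpiB KO) and 29.5 and 28.4 (PU.1 SpiB DKO). Both genotypes without PU.1 were below control and SpiB KO by similar amounts (PU.1 cKO, log2 fold change -1.47 ± 0.21, adjusted p = 0.00176; PU.1 SpiB DKO, log2 fold change -1.43 ± 0.22, adjusted p = 0.00158). Under LPS + IL-4 it was at 40.4 and 29.0 CPM (control), 21.8 and 19.4 (PU.1 cKO), 40.1 and 42.4 (SpiB KO) and 25.6 and 24.7 (PU.1 SpiB DKO), where PU.1 cKO was called against control (log2 fold change -0.74 ± 0.15, adjusted p = 0.00982) and PU.1 SpiB DKO fell short of the fold threshold (log2 fold change -0.46 ± 0.15, adjusted p = 0.0388).

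Csk (chr9:57626646-57653631), which phosphorylates the inhibitory tail tyrosine of SRC kinases, had the narrowest range of fold changes against control of the 9 over the genotypes and stages. Naive values were 655 and 626 CPM (control), 605 and 597 (PU.1 cKO), 623 and 603 (SpiB KO) and 542 and 569.8 (PU.1 SpiB DKO). In CD40L + IL-4 it measured 447 and 438 CPM (control), 429.9 and 419 (PU.1 cKO), 464 and 429 (SpiB KO) and 337 and 346 (PU.1 SpiB DKO), with PU.1 SpiB DKO lowest (log2 fold change -0.37 ± 0.14, adjusted p = 0.108) and a fold under 1.5. In LPS + IL-4 it measured 345 and 316 CPM (control), 330.3 and 308 (PU.1 cKO), 348 and 376 (SpiB KO) and 350.4 and 353 (PU.1 SpiB DKO), with SpiB KO and PU.1 SpiB DKO just above control and PU.1 cKO overlapping it. It was called against control in no genotype at any stage, its log2 fold changes lying between -0.37 and 0.13.

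Comparisons between mutants set the double mutant beside each single one, with the deletion of Spi1 incomplete in naive PU.1 SpiB DKO. Adding the loss of Spib to that of PU.1 (PU.1 SpiB DKO compared with PU.1 cKO) called 2 kinases in naive cells, against 12.9% of all genes, 2 in CD40L + IL-4, against 4.06%, and 3 in LPS + IL-4, against 12.6%. Those in naive cells were Fyn and Fgr, both higher, those in CD40L + IL-4 were Syk and Btk, both lower, and those in LPS + IL-4 were Zap70, Blk and Fgr, all higher. PU.1 SpiB DKO against SpiB KO adds the loss of PU.1 to that of Spib and also adds the recombinase, and these cannot be told apart. This comparison called 1 in naive cells, against 3.05% of all genes, 7 in CD40L + IL-4, against 15.3%, and 3 in LPS + IL-4, against 12.8%. In naive cells, where part of Spi1 was retained, it was Zap70, and in CD40L + IL-4 it was Zap70, higher, and Syk, Blk, Lyn, Fgr, Tec and Btk, so that 6 of the 7 were lower, against 7.11% of all genes called lower. In LPS + IL-4 they were Zap70, higher, and Tec and Btk, lower. In CD40L + IL-4 the comparison of PU.1 SpiB DKO with PU.1 cKO called 0 kinases without PU.1 cKO replicate 1 or PU.1 SpiB DKO replicate 2 and 1 without PU.1 cKO replicate 2 or PU.1 SpiB DKO replicate 1. In naive cells it called 4 without PU.1 cKO replicate 1.

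The interaction of the losses, the log2 difference between PU.1 SpiB DKO and the sum of both single effects, was called on adjusted p alone. SpiB KO alone lacked the recombinase and control alone lacked floxed Spi1, so any effects of these cannot be told apart from the interaction. In naive cells the interaction also sets a partial loss of PU.1 in PU.1 SpiB DKO against a fuller one in PU.1 cKO. It was called for 3 kinases in naive cells, against 0.936% of all genes, for 0 in CD40L + IL-4, against 1.17%, and for 1 in LPS + IL-4, against 1.48%. In naive cells Zap70 fell short of the sum (-1.34 ± 0.20, edgeR adjusted p = 0.0248), and Fyn (1.06 ± 0.15, adjusted p = 0.0172) and Fgr (0.78 ± 0.17, adjusted p = 0.128) exceeded it. In CD40L + IL-4, where edgeR called 0, 5 of the 9 had an unadjusted p under 0.05, limma-voom also called 0, DESeq2 called 2 (Syk and Zap70), a block on replicate number 2, and 3 were called with all 24 libraries or with no count filter. In LPS + IL-4 Zap70 again fell short of the sum (-1.01 ± 0.21, edgeR adjusted p = 0.0897), and a block on replicate number added a call for Fyn (log2 0.42, adjusted p = 0.0316). The Zap70 call in LPS + IL-4 was lost with limma-voom, with all 24 libraries, and without PU.1 cKO replicate 1 or any SpiB KO or PU.1 SpiB DKO library. The naive Fgr call was lost with limma-voom, with all 24 libraries, and without any mutant library, and the naive Zap70 call without PU.1 cKO replicate 2.

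Whether a genotype's effect on a kinase differed between stages was tested in a fit of all 24 libraries. The PU.1 cKO effect differed for 4 of the 9 between CD40L + IL-4 and naive cells, against 8.98% of all genes, for 1 between LPS + IL-4 and naive cells, against 6.34%, and for 2 between the culture conditions, against 3.09%. The SpiB KO effect differed for 1, against 2.15%, for 3, against 5.65%, and for 0 between the culture conditions, against 0%. For that last comparison 2 kinases had an unadjusted p under 0.05 in edgeR, and limma-voom also called 0. The PU.1 SpiB DKO effect differed for 6 between CD40L + IL-4 and naive cells, against 16.8%, for 3 between LPS + IL-4 and naive cells, against 29.6%, and for 7 between the culture conditions, against 28.6%. All 6 of the first were lower in CD40L + IL-4, against 9.62% of all genes, and all 7 of the last were higher in LPS + IL-4 than in CD40L + IL-4, against 13.6% of all genes. Blk was among the latter, with an effect of -0.74 ± 0.20 in CD40L + IL-4 and 0.69 ± 0.13 with LPS + IL-4. Since Spi1 was partly retained in naive PU.1 SpiB DKO, the stage and the extent of the deletion cannot be told apart in the comparisons of its effect with naive cells. With the replicate number as a block within stages, the calls over these 9 comparisons numbered 41 rather than 27.

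The balance between paralogues was measured in each library as the log2 ratio of their raw counts, which does not depend on library scaling. For each of 7 ratios the mutant was compared with control over the 3 stages by a two-sided exact permutation test of genotype labels within stages (216 arrangements, 6 libraries of each genotype), with adjustment over 21 tests. Of the 21 differences, 9 passed an adjusted p of 0.15. The smallest p this design allows is 0.00926, and a single stage with 2 libraries against 2 cannot go below 0.333. A count ratio reflects transcript length, so differences between genotypes are compared, not the ratio itself.

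The log2 ratio of Zap70 to Syk shifted most. In naive cells it was -6.15 and -6.79 (control), -2.05 and -2.06 (PU.1 cKO), -4.26 and -4.87 (SpiB KO) and -1.95 and -2.34 (PU.1 SpiB DKO). In CD40L + IL-4 it was -3.40 and -3.48 (control), -1.66 and -0.90 (PU.1 cKO), -1.85 and -2.03 (SpiB KO) and 0.00 and 0.06 (PU.1 SpiB DKO), so that the counts of both genes were about equal in the last. In LPS + IL-4 it was -7.32 and -7.38, -3.18 and -3.44, -5.11 and -4.81 and -1.94 and -1.90 in the same order. No control library overlapped a mutant library at any stage. Averaged over stages, the difference from control was 3.54 for PU.1 cKO, 1.93 for SpiB KO and 4.41 for PU.1 SpiB DKO (exact permutation p = 0.00926 for each, the smallest possible, adjusted p = 0.0389).

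Within the SRC family the balance shifted away from Lyn in PU.1 SpiB DKO. The log2 ratio of Lyn to Fyn was 0.67 and 0.75 in naive PU.1 SpiB DKO against 2.13 and 2.49 in control, -0.69 and -1.25 against 0.44 and 0.77 in CD40L + IL-4 and 0.21 and 0.38 against 1.04 and 0.92 in LPS + IL-4. The groups did not overlap at any stage, and the mean difference was -1.28 (exact permutation p = 0.00926, adjusted p = 0.0389). Lyn to Blk differed by -0.58 on average (exact permutation p = 0.0185, adjusted p = 0.0648), with -0.26 at the naive stage, -0.57 in CD40L + IL-4 and -0.93 with LPS + IL-4. Its naive PU.1 SpiB DKO values of -0.51 and -0.28 overlapped the control values of -0.37 and 0.11. Fgr to Lyn differed by 0.73 (exact permutation p = 0.0278, adjusted p = 0.0729), with 1.27 at the naive stage, 0.16 in CD40L + IL-4 and 0.76 with LPS + IL-4. In CD40L + IL-4 its PU.1 SpiB DKO values of -3.13 and -2.38 lay on either side of the control values of -3.04 and -2.79. Blk to Fyn differed by -0.70 on average (exact permutation p = 0.0556, adjusted p = 0.13), but its sign was not the same at every stage, being -1.34 at the naive stage, -1.0 in CD40L + IL-4 and 0.25 with LPS + IL-4. In naive cells the ratios with Fyn or Fgr moved together with the marker sums given above, and their part in these differences was not tested.

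Tec and Btk, which both fell in mutants, kept a ratio to each other that was not called apart from control in any genotype. The mean log2 difference was -0.30 in PU.1 cKO (exact permutation p = 0.111, adjusted p = 0.212), -0.01 in SpiB KO and 0.02 with PU.1 SpiB DKO. The PU.1 cKO value came mostly from CD40L + IL-4, where the ratio was -1.82 and -2.04 against -0.98 and -1.30 in control. A p above the threshold does not show that the ratios were equal.

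Csk relative to the summed counts of the 4 SRC kinases was higher in PU.1 cKO, by 0.35 on the log2 scale on average and by 0.28, 0.53 and 0.24 in naive, CD40L + IL-4 and LPS + IL-4 cells (exact permutation p = 0.00926, adjusted p = 0.0389). In SpiB KO it was lower by 0.16, with differences of -0.18, -0.09 and -0.21 (exact permutation p = 0.0278, adjusted p = 0.0729). In PU.1 SpiB DKO it differed from control by -0.05 and was not called (exact permutation p = 0.519). The SpiB KO call was lost without naive control replicate 1, naive SpiB KO replicate 2, CD40L + IL-4 control replicate 1, CD40L + IL-4 SpiB KO replicate 1 or LPS + IL-4 control replicate 2 (exact permutation adjusted p between 0.151 and 0.259). The Blk to Fyn call in PU.1 SpiB DKO was lost without CD40L + IL-4 control replicate 2 (exact permutation adjusted p = 0.194) or either CD40L + IL-4 PU.1 SpiB DKO library (adjusted p = 0.212).

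**Figure D4:**
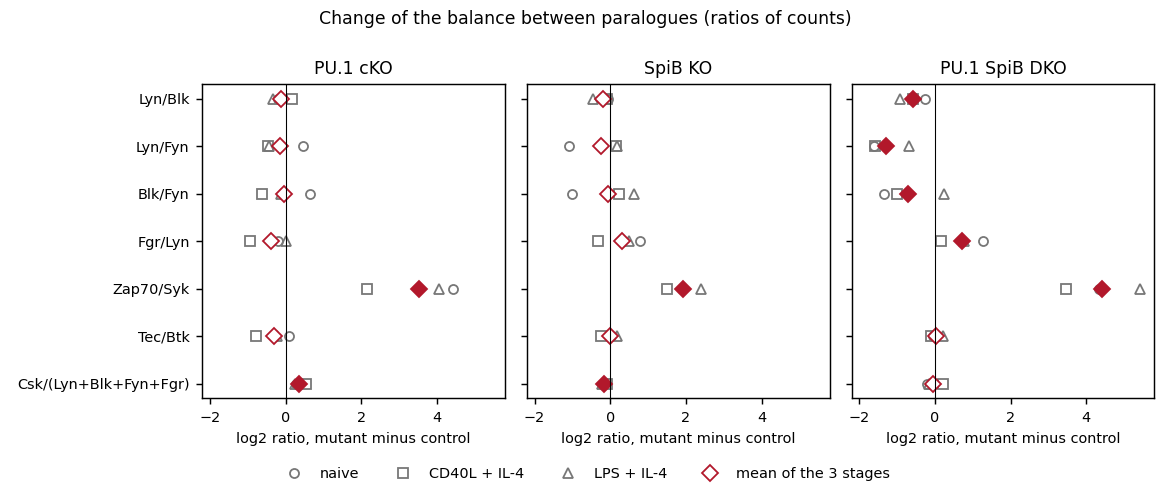
Difference from control in the log2 ratio of raw counts between paralogues, for each mutant genotype. Grey symbols are the single stages and diamonds the mean of the 3 stages, filled where the exact permutation test gave an adjusted p under 0.15. Zap70/Syk lies furthest from 0, at means of 3.54, 1.93 and 4.41, whereas the Tec/Btk diamonds lie at -0.30, -0.01 and 0.02.

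Beside the 9 kinases, a list of 51 genes held other family members, their regulators, the receptors they phosphorylate and their adaptors and effectors, of which 48 were tested at the naive stage, 48 in CD40L + IL-4 and 47 with LPS + IL-4. Against control, 4 of these rose and 9 fell in naive PU.1 cKO, against 4.18% and 6.55% of all genes called higher and lower. In CD40L + IL-4, 2 rose and 15 fell in PU.1 cKO (6.27% and 7.21% of all genes), and with LPS + IL-4 9 rose and 10 fell (6.68% and 3.85%). In SpiB KO, 4 rose and 3 fell in naive cells (6.01% and 3.62% of all genes) and 3 rose and 0 fell with LPS + IL-4 (2.25% and 0.940%). In CD40L + IL-4 SpiB KO edgeR called 0, where 4 of the 48 had an unadjusted p under 0.05, and 0.0786% of all genes were called higher and 0.0550% lower. In PU.1 SpiB DKO, 8 rose and 8 fell at the naive stage (12.6% and 8.64% of all genes), 6 rose and 16 fell in CD40L + IL-4 (9.13% and 9.20%), and 17 rose and 7 fell with LPS + IL-4 (13.7% and 6.52%).

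Of the 47 genes of that list tested at both culture stages, 12 were called at both in PU.1 SpiB DKO against control, where 7.95% of all genes tested at both were. Of the 12, 6 were higher at both, against 4.98% of all genes. Lat, the adaptor that ZAP70 phosphorylates in T cells, had a log2 fold change of 2.40 in CD40L + IL-4 and 3.47 with LPS + IL-4. Lck, the SRC kinase that works with ZAP70, had 0.74 and 1.77, and Sla2, an adaptor that limits receptor signalling, had 1.68 and 3.95. Src itself had 1.81 and 1.22, Lime1, a transmembrane adaptor for SRC kinases and Csk, had 1.04 and 1.16, and Ptpn22, a phosphatase that acts on SRC kinases with Csk, had 0.86 and 0.86.

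Of the other genes among the 12, 1 changed direction and the rest were lower at both culture stages, against 2.26% of all genes. Pirb, an inhibitory receptor, had a log2 fold change of -3.39 in CD40L + IL-4 and -3.37 with LPS + IL-4. Fcgr2b, the inhibitory Fc receptor of B cells, had -1.64 and -1.05, and Cd72, an inhibitory co-receptor, had -0.93 and -0.80. Cd22, another inhibitory co-receptor, had -0.67 in CD40L + IL-4 but 0.66 in LPS + IL-4. Pik3ap1, the adaptor that links the receptor to PI3-kinase, had -1.91 and -0.78.

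The B cell and plasma cell markers also moved with genotype. In CD40L + IL-4 the summed level of 7 B cell markers was 20146 to 26453 CPM in control and 12025 to 13861 in PU.1 SpiB DKO. Of 6 listed plasma cell markers 5 were measured, and their summed level was 1219 to 1507 and 3133 to 3284 in the same order. In LPS + IL-4 the B cell sums were 9700 to 11567 CPM in control and 9230 to 9742 in PU.1 SpiB DKO, and the plasma cell sums were 863 to 912 and 2034 to 2092. Most of the plasma cell sums was Xbp1 and Mzb1. These and Prdm1 were called higher in PU.1 SpiB DKO in both cultures. Sdc1 was called higher in CD40L + IL-4 (log2 fold change 2.12 ± 0.25) but not in LPS + IL-4 (-0.02 ± 0.14, edgeR adjusted p = 0.935). Tnfrsf17 was called in neither and did not exceed 0.149 CPM in LPS + IL-4. All libraries came from CD138- cells, a gate that leaves out plasma cells carrying that surface protein. The part of these marker changes in the kinase values was not tested.

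As a description over the 24 libraries, after each stage was centred on its mean, the members fell into different company. Among 9668 genes, the transcripts most like Lyn were Pecam1 (r 0.973, rho 0.959) and Adcy7 (r 0.946, rho 0.946). For Blk they were Hvcn1 (r 0.952, rho 0.936) and Myl12b (r 0.927, rho 0.892). For Fyn they were Ptprs (r 0.936, rho 0.941) and Tubb2a (r 0.933, rho 0.841). For Fgr they were Ptms (r 0.945, rho 0.935) and Matk (r 0.926, rho 0.924). For Syk they were Lsp1 (r 0.918, rho 0.910) and Pou2f2 (r 0.912, rho 0.910). For Zap70 they were Hsd11b1 (r 0.943, rho 0.956) and Hspa12a (r 0.939, rho 0.914). For Btk they were Sp100 (r 0.963, rho 0.939) and March1 (r 0.962, rho 0.967). For Tec they were Nlrc4 (r 0.954, rho 0.942) and Slamf1 (r 0.937, rho 0.917). For Csk they were Rgs14 (r 0.912, rho 0.826) and Cnr2 (r 0.910, rho 0.895). Among the 9 kinases themselves, Lyn and Btk (0.916), Btk and Tec (0.890) and Lyn and Syk (0.857) varied together, and Zap70 varied opposite to Btk (-0.666), Tec (-0.586) and Syk (-0.549). The points share genotype groups and libraries, so these coefficients describe this design only.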

How the data were processed

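The authors aligned reads to the mouse genome (GRCm38, mm10 in the submitters' processing notes) with Subread and counted them per gene with featureCounts, and raw counts were deposited in 2 tables: the CD40L + IL-4 libraries came from the table separate from the naive and LPS + IL-4 libraries, so table and stage cannot be told apart for them. The deposited log2 RPKM values were quantile normalised by the authors, LPS + IL-4 libraries apart from the rest, and served for levels between genes, for shares within a family, and for 2 alternatives (a filter and the balance).

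Counts were tested with edgeR 4.0.16 (quasi-likelihood, TMM scaling) in R 4.3.3 over the 8 libraries of a stage, keeping genes with at least 0.5 CPM in 2 or more libraries; comparisons between stages used all 24 libraries in 12 groups. Genes were called at an adjusted p (Benjamini-Hochberg over all genes tested) under 0.15 and a fold above 1.5, and interactions at adjusted p alone. Entries without a symbol (517, or 0.162% of counts) carried a gene identifier and stayed in the fits. Balance used log2 ratios of counts with 0.5 added to each, by a two-sided exact permutation test. Alternatives used limma 3.58.1 and DESeq2 1.42.0, the other filters given under the limits, and each library left out. The test was checked on simulated data. LPS + IL-4 libraries paired by replicate number, as same-numbered libraries deviated together (r 0.386 to 0.514). The 2 libraries of a group were not copies of each other, the replicate correlations being 0.978 to 0.991. Genes named were the 9 members, Spi1 and Spib, pathway genes called in PU.1 SpiB DKO at both culture stages (1 of which is not reported here), cell markers, and for each member the 2 transcripts most like it. The members and lists were chosen with earlier results of these data known. Depth was 9598674 to 73658850 counts per library. Spliced forms and sequence shared between paralogues were not examined.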

Additional observations from a re-analysis of the deposited data

Results flagged for a closer look

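Each mutant's log2 fold change against control was compared between stages by an interaction contrast in edgeR's fit of all 24 libraries, and 27 such differences of a kinase passed an adjusted p of 0.15. Each value is the log2 fold change at the first stage named minus that at the second, with its standard error, so a negative value means that the mutant stood lower relative to control at the first stage. Differences that involve CD40L + IL-4 cannot be told apart from the separate count table of those libraries, and each contrast shares its control libraries with others. The deletion of Spi1 was incomplete in naive PU.1 SpiB DKO, so for that genotype the differences from naive cells cannot be told apart from the extent of the deletion.

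In PU.1 cKO, 7 differences passed, and they involved Zap70, Fyn, Fgr and Tec. Of all genes tested, 8.98%, 6.34% and 3.09% passed in the 3 comparisons below, in the order given. For CD40L + IL-4 minus naive the differences were Zap70 -1.77 ± 0.29, Fyn 0.71 ± 0.15, Fgr -0.96 ± 0.27 and Tec -1.26 ± 0.25 (adjusted p between 0.00198 and 0.056 by edgeR). For LPS + IL-4 minus naive the difference was Fyn 0.80 ± 0.15 (adjusted p = 0.00495 by edgeR). For LPS + IL-4 minus CD40L + IL-4 the differences were Zap70 1.37 ± 0.29 and Fgr 1.09 ± 0.29 (adjusted p between 0.0273 and 0.0794 by edgeR).

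In SpiB KO, 4 differences passed, and they involved Fyn, Zap70 and Blk. Of all genes tested, 2.15% passed for CD40L + IL-4 minus naive, 5.65% for LPS + IL-4 minus naive and 0% for LPS + IL-4 minus CD40L + IL-4. For CD40L + IL-4 minus naive the difference was Fyn -1.01 ± 0.15 (adjusted p = 0.00077 by edgeR). For LPS + IL-4 minus naive the differences were Zap70 0.95 ± 0.31, Fyn -0.92 ± 0.15 and Blk 0.72 ± 0.23 (adjusted p between 0.00145 and 0.136 by edgeR).

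In PU.1 SpiB DKO, 16 differences passed, and every kinase but Syk was involved. Of all genes tested, 16.8%, 29.6% and 28.6% passed in the 3 comparisons below, in the order given. For LPS + IL-4 minus naive, 3 of the 9 kinases passed, which is near that share. For CD40L + IL-4 minus naive the differences were Zap70 -1.56 ± 0.29, Fyn -0.90 ± 0.15, Lyn -0.84 ± 0.25, Fgr -1.98 ± 0.28, Tec -0.64 ± 0.25 and Btk -0.56 ± 0.21 (adjusted p between 7.17e-05 and 0.125 by edgeR). For LPS + IL-4 minus naive the differences were Zap70 0.86 ± 0.30, Fyn -0.79 ± 0.15 and Blk 0.79 ± 0.23 (adjusted p between 0.00101 and 0.0596 by edgeR). For LPS + IL-4 minus CD40L + IL-4 the differences were Zap70 2.42 ± 0.29, Blk 1.35 ± 0.23, Lyn 0.97 ± 0.25, Fgr 1.61 ± 0.29, Tec 0.89 ± 0.25, Csk 0.38 ± 0.14 and Btk 0.55 ± 0.21 (adjusted p between 0.000134 and 0.0837 by edgeR). In naive SpiB KO and PU.1 SpiB DKO, where Fyn was higher, the T cell, NK cell and dendritic cell marker sums were also higher, and their part in its stage differences was not tested.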

How the results depend on the processing

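Summed over the 3 comparisons with control, 12 kinase calls were made at the naive stage, 14 with CD40L + IL-4 and 8 with LPS + IL-4, beside 21 calls between stages in control, 27 differences of a genotype effect between stages and 9 differences in balance. With no fold threshold the LPS + IL-4 count was 17, which follows from the rule itself, as 9 further kinase values passed on adjusted p alone. With the replicate number as a block within stages, the count of genotype effects that differed between stages was 41. Same-numbered libraries deviated together in LPS + IL-4 (r 0.386 to 0.514) but this was not shown in naive cells (0.0918 to 0.250) or CD40L + IL-4 (-0.0702 to 0.266), and the block gave 11, 14 and 8 calls within the 3 stages and 21 between stages in control. With 2 stages in place of 3, 36 arrangements allow no exact permutation p below 0.0556. From naive and CD40L + IL-4 cells alone, 0 balance differences were called (lowest exact permutation adjusted p = 0.194), against 9 from naive and LPS + IL-4 cells and 8 from both culture stages. Leaving out 1 library at a time gave 10 to 15 calls at the naive stage, 11 to 14 with CD40L + IL-4, 6 to 11 with LPS + IL-4, 19 to 21 between stages and 8 to 11 in balance. No called value changed sign under any alternative run (limma-voom, DESeq2, another size factor, no count filter, other sets of libraries, a stricter threshold, an RPKM filter, the block, libraries left out). Of the values for single kinases under these alternatives, 1297 kept a call and 82 lost one, while of those without a call 1956 stayed so with the same sign, 93 gained one and 82 moved in sign. For single balance values the numbers were 239, 22, 316, 9 and 23 in that order.

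With 2 libraries per group, small changes go unseen. The fewest reads of any group were those of Zap70 in naive control, at 77 and 72, and in LPS + IL-4 control, at 47 and 101. Cell composition, the recombinase in SpiB KO and the count table of CD40L + IL-4 were not separable from the groups they move with.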
